A study of Mus musculus with 2 samples.

Results

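The 4 CDC-like kinase genes of the mouse, Clk1, Clk2, Clk3 and Clk4, were followed through nuclear RNA of macrophages, gene by gene and transcript by transcript. They were chosen by name, as a gene family, with earlier results of these data known, and are 4 of the 55536 annotated genes in the tables. The cells were macrophages, phagocytes that had been grown in culture from the bone marrow of mice of the strain C57BL/6J. Lipid A, the Toll-like receptor 4 ligand of bacterial endotoxin, was given at 100 ng/ml for 12 h and removed for 12 h, and a second dose of 100 ng/ml followed for 50 min. RNA of the nuclear fraction, which the labels call both nucleoplasmic and nuclear, was depleted of ribosomal RNA and sequenced as 2 libraries of this 1 group, with 500 ng of RNA for replicate 1 and 1 µg for replicate 2. Both carry the same donor entry and no label names separate animals, so the spread between them may be technical, and RNA input and replicate cannot be told apart. No untreated library and no cytoplasmic library was analysed here. The levels below are therefore levels in restimulated macrophage nuclei, with no change by lipid A attached to them.

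CLK kinases phosphorylate the serine- and arginine-rich (SR) proteins that help choose splice sites, and they work inside the nucleus. Their own transcripts are a textbook case of regulated splicing. Partly spliced Clk transcripts can be held in the nucleus with introns around exon 4 still in place, which are called detained introns, and fully spliced transcripts that skip exon 4 lose the reading frame of the kinase domain. A transcript with an early stop codon is usually destroyed by nonsense-mediated decay (NMD), which acts during translation in the cytoplasm.

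The libraries held 20612078 and 22772081 expected counts on annotated genes, that is, estimated read counts in which shared reads are divided among transcripts. Macrophage markers summed to 2535 and 2897 TPM (a level per transcript length, scaled to an equal total in each library), against 1.68 and 2.05 TPM for 20 markers of 7 other cell types, of which 7 were at 0 in both libraries. Of 22502 genes, 4.48% passed an exact binomial test on counts and had a log2 ratio of 1 or more in size.

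All 4 genes share 1 architecture. The reference transcript of each has 13 exons, and exons 5 to 12 have the same lengths in the 4 genes, from 67 bases for exon 5 to 167 bases for exon 7. Exon 4 is the one internal coding exon at which annotated transcripts diverge in the same 3 ways in every gene. It is spliced in, it stays joined to a neighbouring intron, or it is skipped. Clk1 lies on the minus strand of mm10 at chr1:58410189-58424066, Clk2 on the plus strand at chr3:89164795-89176921, Clk3 on the minus strand at chr9:57750624-57765860 and Clk4 on the plus strand at chr11:51261730-51281766. The sequence below is exon 4 in capitals with the last 20 bases of intron 3 before it and the first 12 bases of intron 4 after it, both in lower case. It was read in the transcript direction from a transcript of the GENCODE M21 annotation that keeps both introns, and is shown because the retained and the skipped forms of each gene differ at these junctions.
Clk1, chr1:58420109-58420231, minus strand: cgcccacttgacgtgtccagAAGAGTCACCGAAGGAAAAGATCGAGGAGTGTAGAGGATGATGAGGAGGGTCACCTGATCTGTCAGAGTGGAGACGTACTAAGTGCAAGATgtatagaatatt
Clk2, chr3:89169598-89169714, plus strand: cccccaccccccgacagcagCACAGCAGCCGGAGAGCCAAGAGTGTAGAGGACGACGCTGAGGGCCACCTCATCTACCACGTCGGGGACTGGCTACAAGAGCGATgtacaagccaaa
Clk3, chr9:57758615-57758743, minus strand: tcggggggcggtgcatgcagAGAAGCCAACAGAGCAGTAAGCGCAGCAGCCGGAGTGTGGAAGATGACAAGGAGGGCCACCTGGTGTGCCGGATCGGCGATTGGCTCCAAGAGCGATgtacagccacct
Clk4, chr11:51273058-51273180, plus strand: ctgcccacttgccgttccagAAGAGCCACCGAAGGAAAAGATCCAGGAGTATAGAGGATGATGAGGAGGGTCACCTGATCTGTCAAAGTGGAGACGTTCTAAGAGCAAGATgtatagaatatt

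Exon 4 is 91 bases long in Clk1, 85 in Clk2, 97 in Clk3 and 91 in Clk4. Each length leaves a remainder of 1 after division by 3, so its loss shifts the reading frame. That property is common, since 59.4% of 157355 internal coding exons of the annotation are not multiples of 3. Clk1 and Clk4 are the closest pair, with 85 of 91 exon 4 bases identical (93.4%), while the other 5 pairs share 63.0% to 66.7% of aligned positions. All 8 flanking introns begin with GT and end with AG. Intron 3 is 871 bases long in Clk1, 694 in Clk2, 2100 in Clk3 and 1055 in Clk4, and intron 4 is shorter in each gene, at 387, 346, 276 and 391 bases. The introns of Clk1 and Clk4 are poor in G and C (intron 3, 33.0% and 36.7%; intron 4, 26.4% and 34.0%). Those of Clk2 and Clk3 hold 50.0% to 56.1%.

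Skipping exon 4 joins exon 3 to exon 5. In the annotated NMD transcripts Clk1-210 and Clk2-204 the reading frame then ends soon after the junction, 18 bases into exon 5 in Clk1 and 9 bases into exon 5 in Clk2, with 8 exons still to follow. The lines show the last 15 bases of exon 3 and the bases of exon 5 up to the stop codon, which is in capitals. The exon 3 end and the exon 5 start are at bases 58421083 and 58419733 of chromosome 1 for Clk1 and 89168923 and 89170049 of chromosome 3 for Clk2.
Clk1-210: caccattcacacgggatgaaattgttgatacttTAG
Clk2-204: agccgctcatcttcaatgaaattgTAA
In Clk3-209 the annotated frame ends in exon 6. In Clk4-204 and Clk4-212 it ends in exon 3, before the junction, and both also carry sequence of intron 2. A further skipping form of Clk4, Clk4-203, lacks exons 2 and 4 together and is annotated as protein coding, with 903 coding bases against 1443 in the reference transcript.

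**Figure D1:**
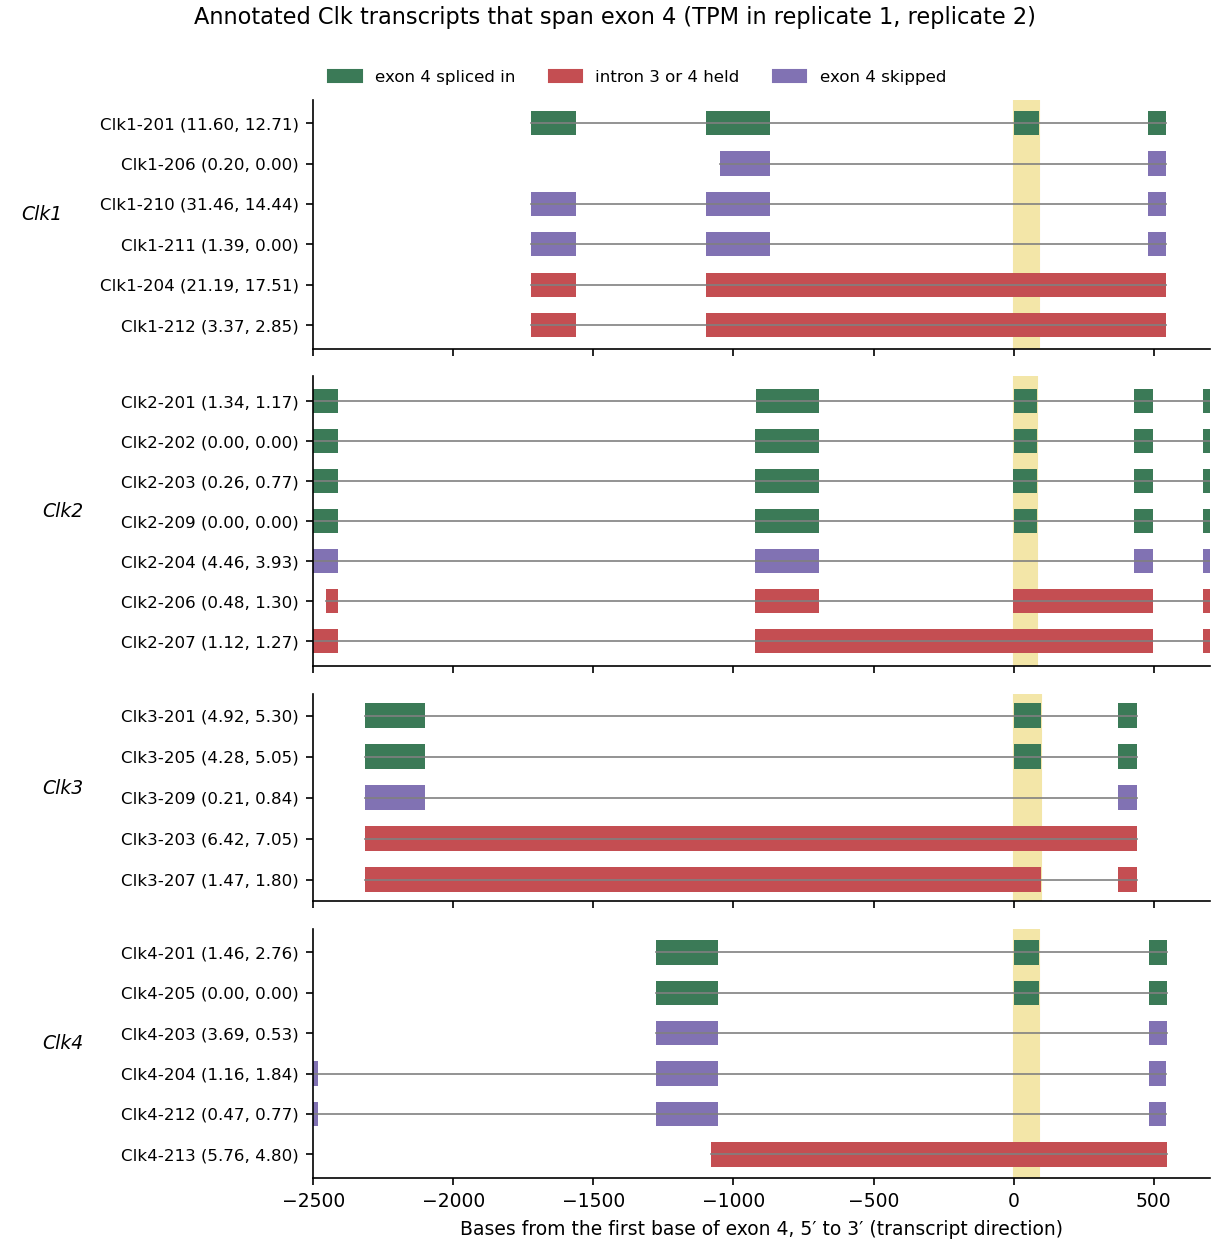
Annotated Clk transcripts that span exon 4, drawn to scale as bases from the first base of exon 4, with exons as blocks, exon 4 shaded, colour for the fate of exon 4, and each transcript's TPM in replicates 1 and 2 in the alignment-based table beside its name. Every gene has at least 1 transcript of each fate, and in Clk3 2 transcripts run through all 2100 bases of intron 3.

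Clk1 had the highest gene level of the family. Its TPM in the gene table was 122 in replicate 1 and 93.4 in replicate 2 (108 ± 20.4, SD, n = 2). That placed it at or above 97.9% and 96.8% of 11076 protein-coding genes that had 10 counts or more in each library, whose median was 4.28 and 4.34 TPM. Clk1 is the family member most often studied for its phosphorylation of SR proteins.

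Clk3 stood at 25.1 and 31.0 TPM (28.1 ± 4.19) and Clk4, the closest relative of Clk1, at 29.9 and 26.0 TPM (27.9 ± 2.72). Their values overlapped, so the order of these neighbours was not resolved. Clk2 was lowest, at 9.15 and 10.1 TPM (9.62 ± 0.665), below every library value of the other genes. Clk1 was 13.4-fold above Clk2 in replicate 1 and 9.25-fold in replicate 2.

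The index-based table, made from the reads and a transcript index, gave lower levels, above all in replicate 2. Clk1 was at 73.7 and 26.2 TPM, Clk2 at 6.24 and 3.15, Clk3 at 18.6 and 10.3, and Clk4 at 26.6 and 9.98. The median of the same 11076 genes moved in the same direction, from 3.25 TPM in replicate 1 to 1.52 in replicate 2. Clk1 remained highest and Clk2 lowest in both libraries of that table, and Clk3 and Clk4 changed places between them. Clk1 was at or above 97.6% and 96.1% of the protein-coding genes there.

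**Figure D2:**
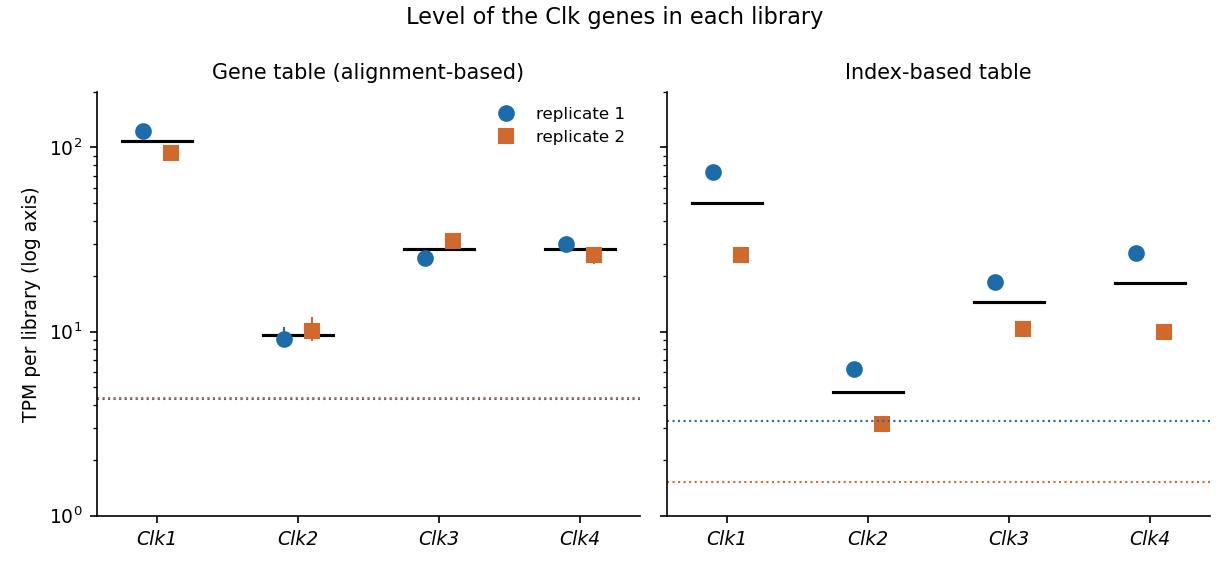
TPM of each Clk gene in replicate 1 (circle) and replicate 2 (square) in the gene table and the index-based table, on a log axis, with the mean of both as a bar, the authors' interval as a thin line in the gene table, and the library's median protein-coding gene dotted. Clk1 lies above the other genes in every library, and all values fall in replicate 2 of the index-based table, as the dotted median does.

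None of the 4 genes was called between the libraries on counts, where 4.48% of all genes were. Clk1 had 6579 and 5166 counts, a log2 ratio of -0.42 for replicate 2 over replicate 1 after scaling by the trimmed mean of M values (TMM). Its counting interval ran from -0.47 to -0.37. The lower value in replicate 2 thus exceeded counting error with reads taken as independent (exact binomial test, Benjamini-Hochberg adjusted p = 3.75e-54). It stayed under the 2-fold limit. An adjusted p under 0.05 on this test, at any size of ratio, was found for 26.0% of 22502 genes. Ratios at least as large in size were found for 23.1% of the 8641 genes that had 100 counts or more in each library. Clk3, with 2068 and 2464 counts, had a log2 ratio of 0.18 (adjusted p = 0.000192, same exact test), and Clk4, with 1303 and 1188, one of -0.21 (adjusted p = 0.00232). Clk2, with 539 and 581 counts, had a log2 ratio of 0.04 with an interval from -0.14 to 0.21 (adjusted p = 0.975, same exact test). None was called under DESeq2 size factors (4.51% of genes), library totals (4.53%), the index-based table (6.79%), an added count of 1 (4.45%), a minimum of 10 counts (6.43%) or the exact test of edgeR at a dispersion of 0.04 (0.738%). These tests compare 2 libraries of different RNA input with no replicate check.

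Clk3 overlaps Edc3, a gene of the opposite strand, over 1876 bases. Edc3 held 312 and 354 counts. The strand setting of the counting was not given in the sources used here. Reads in the overlap therefore cannot be assigned with certainty. Clk4 overlaps BC049762 on the opposite strand, with 2 counts in each library, and holds Gm25082, an RNA gene that overlaps it over 255 bases on the same strand, with 8 and 7 counts.

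Retained-intron transcripts took the largest class share of 3 of the 4 genes in the alignment-based transcript table, and a smaller share in Clk2. In Clk1 they held 44.1% of the gene's TPM in replicate 1 and 57.9% in replicate 2 (51.0% ± 9.78). In Clk3 they held 51.6% and 52.1% (51.8% ± 0.346), and in Clk4 56.1% and 51.6% (53.9% ± 3.20). Values of these 3 genes overlapped, while Clk2 was lower in both libraries, at 32.1% and 36.5% (34.3% ± 3.14). Retained-intron transcripts were also the largest class of Clk1 and Clk4 in the index-based table, while in its replicate 2 Clk3 had 47.9% retained intron against 49.4% protein coding.

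The class in Clk2 that exceeded it was NMD, at 48.7% and 38.9% of TPM (43.8% ± 6.91). Clk1 followed with 26.9% and 15.5% (21.2% ± 8.08). Clk4 had 5.46% and 10.03%, and Clk3 had 0.837% and 2.71%. The order Clk2, Clk1, Clk4, Clk3 held in both libraries of this table. In the index-based table Clk4 stood at 18.01% and 27.9%, and in replicate 2 it passed Clk1, at 11.2%. The transcript Clk4-212 alone held 10.1% and 27.1% of Clk4 TPM there. The NMD share of Clk2 was 38.5% and 30.1% there, and in replicate 2 it was below the retained-intron share of 35.4% and the protein-coding share of 34.5%.

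Transcripts annotated as protein coding were the minority in each gene. Clk1 has 1 such transcript, with 9.49% and 13.6% of TPM (11.6% ± 2.91). Clk2 had 19.2% in both libraries, Clk4 38.4% in both and Clk3 47.6% and 45.2%. A further 19.5% and 13.0% of Clk1 TPM lay outside the 3 classes, in the 3 processed transcripts Clk1-203, Clk1-207 and Clk1-208. Each of them carries intron sequence that the retained-intron share of Clk1 does not include. In Clk2 such other transcripts held 0% and 5.35%. In the index-based table the protein-coding share was 11.3% ± 2.97 for Clk1 and 47.9% ± 2.06 for Clk3, close to the values above. It was higher there for Clk2 (33.0% ± 2.11) and lower for Clk4 (23.7% ± 1.77). Of the Clk2 TPM there, 16.9% and 17.0% was Clk2-210, a protein-coding transcript of 593 bases that ends in exon 2. That transcript had 0.16 and 0 TPM in the alignment-based table.

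**Figure D3:**
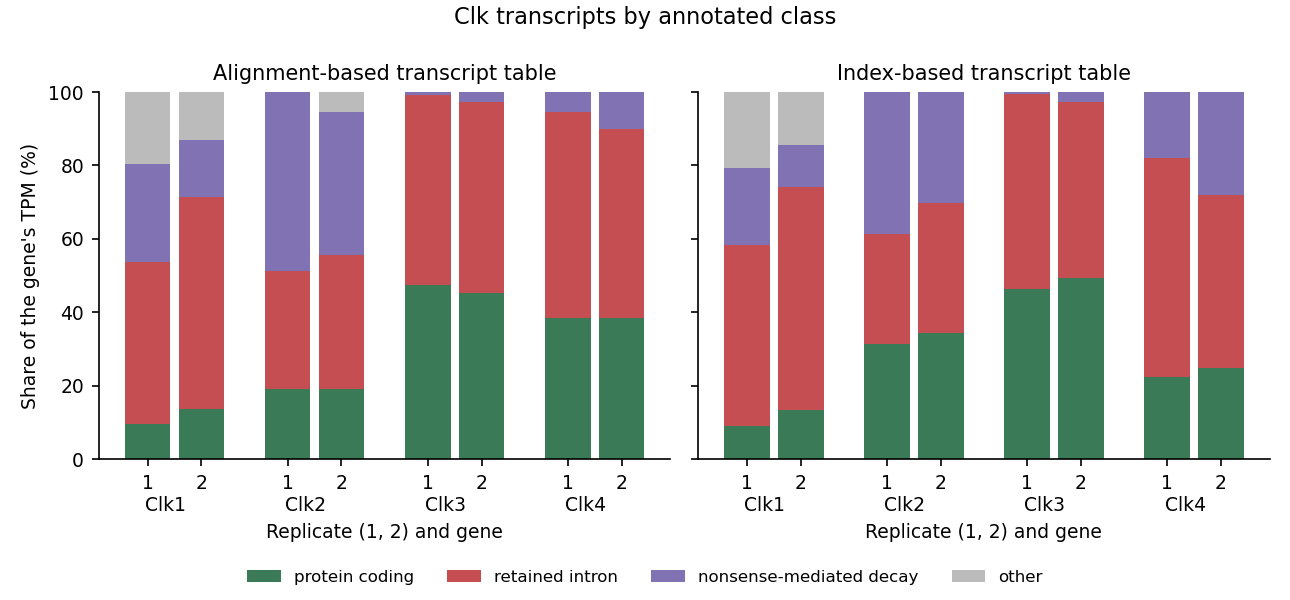
Share of each Clk gene's TPM in transcripts annotated as protein coding, retained intron, NMD or other, per replicate, in the alignment-based and the index-based table. Protein-coding transcripts stay under 50% of every bar, and the NMD part is largest in Clk2 in each library of both tables.

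Set beside other genes, the Clk genes lay high for retained introns and low for protein-coding transcripts. The background was 5154 protein-coding genes that had 100 counts or more in each library and annotated transcripts of both classes, whose median retained-intron share was 21.4% and whose median protein-coding share was 69.8%. For retained introns, 89.4% of those genes were at or below Clk1, 72.1% at or below Clk2, 89.9% at or below Clk3 and 91.2% at or below Clk4. For the protein-coding share the figures were 1.49%, 3.43%, 19.3% and 12.7% in the same order. In the NMD share, 98.6% of the genes were at or below Clk2, 93.7% at or below Clk1, 84.7% at or below Clk4 and 73.8% at or below Clk3. This background did not require an annotated NMD transcript, and its median NMD share was 0%, with an upper quartile of 2.25%. Clk3 reached its rank with a share of 1.77%. Retained-intron ranks were less extreme in the index-based table for all 4 genes, most of all for Clk2. There 87.9%, 60.0%, 84.1% and 86.4% of genes were at or below Clk1, Clk2, Clk3 and Clk4. In the protein-coding share the figures there were 2.19%, 16.3%, 34.05% and 8.61%, less extreme for Clk1, Clk2 and Clk3 and more so for Clk4.

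Retained-intron transcripts made up at least 50% of TPM in both libraries in 2 of the 4 genes, Clk3 and Clk4, against 8.85% of the 5154 genes. In the index-based table none of the 4 reached this in both libraries, against 13.6% of genes. By expected counts, which give long transcripts more weight, Clk1, Clk3 and Clk4 did, against 7.49%. The share also rises with the number of retained-intron transcripts that the annotation lists for a gene. Clk1 and Clk4 have 7 each and Clk2 and Clk3 have 4, where the median gene has 2. Among the 128 genes with 7, whose median share was 43.4%, 65.6% were at or below Clk1 and 73.4% at or below Clk4. Among the 543 genes with 4, whose median was 31.3%, 56.5% were at or below Clk2 and 84.2% at or below Clk3.

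**Figure D4:**
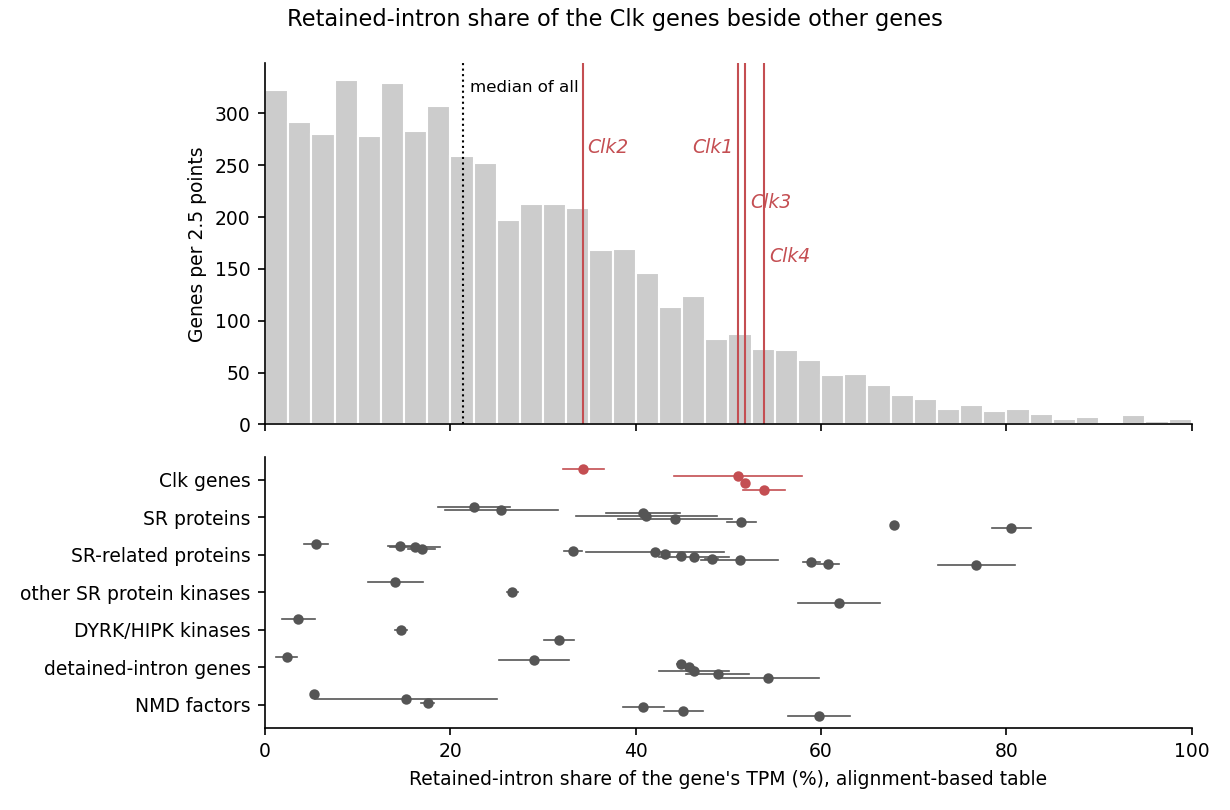
Top, histogram of the mean retained-intron share of TPM over 5154 protein-coding genes, with the 4 Clk genes as red lines and the median of all genes dotted. Bottom, the Clk genes and the comparison lists, each point a gene's mean of 2 libraries and each line joining its library values. Clk2 lies at 34.3% and the other 3 Clk genes between 51.0% and 53.9%, to the right of the median of 21.4%.

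The class name covers several kinds of molecule, and individual transcripts separate them. The values below are from the alignment-based table unless the other is named. In Clk1 the most abundant transcript of replicate 1 was Clk1-210, the NMD form without exon 4, at 31.5 TPM, and in replicate 2 it was second, at 14.4 TPM. The authors' intervals, at a level not given in the sources used here, ran from 26.3 to 34.0 and from 10.1 to 16.7 TPM and did not overlap. Clk1-204, which keeps introns 3, 4 and 6, had 21.2 and 17.5 TPM and was the most abundant Clk1 transcript of replicate 2. Clk1-202, a retained-intron transcript that starts inside intron 7 and never includes exon 4, followed with 19.2 and 13.8 TPM. Ranks differed in the index-based table. There Clk1-210 also led in replicate 1 at 14.98 TPM, while in replicate 2, at 2.93 TPM, it stood behind 4 transcripts, led by Clk1-209 at 4.72 and Clk1-204 at 4.59 TPM. In the alignment-based table the full-length coding transcript Clk1-201 had 11.6 and 12.7 TPM, with intervals that overlapped. Clk1-207 went from 10.8 to 1.49 TPM, with intervals of 6.34 to 14.7 and 0.577 to 2.86 TPM. Clk1-213 went the other way, from 4.99 to 10.67 TPM, with intervals of 3.06 to 6.98 and 8.02 to 12.7 TPM. Clk1-208 had 10.2 and 6.55 TPM.

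In Clk2 the exon 4 skipping transcript Clk2-204 led in both libraries, at 4.46 and 3.93 TPM. The coding transcript Clk2-201 had 1.34 and 1.17 TPM, and the reference transcript Clk2-202 was listed at 0 in both. Clk2-207, which keeps introns 3 and 4, had 1.12 and 1.27 TPM. Clk2-206, which keeps intron 4 alone, had 0.48 in replicate 1 and 1.3 TPM in replicate 2, with overlapping intervals.

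In Clk3 the leading transcript in both libraries was Clk3-203, with introns 3 and 4 in place, at 6.42 and 7.05 TPM. The coding transcripts Clk3-201 (4.92 and 5.30 TPM) and Clk3-205 (4.28 and 5.05 TPM) came next. They were followed by Clk3-208, a retained-intron transcript of exons 2 and 3 that extends into intron 1 (3.98 and 4.66 TPM). Clk3-205 keeps intron 12 whole, though annotated as protein coding, and Clk3-204, another protein-coding transcript, extends into intron 1. Clk3-201, which keeps no intron, held 19.6% and 17.1% of the gene's TPM. The skipping form Clk3-209 was at 0.21 and 0.84 TPM. In the index-based table Clk3-203, at 3.83 and 1.85 TPM, led in neither library. Clk3-202, a short retained-intron transcript, was at 3.88 TPM in replicate 1, and Clk3-204, a short protein-coding transcript, at 2.24 TPM in replicate 2.

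In Clk4 the protein-coding share came mainly from a transcript without exon 4. Clk4-202 starts inside intron 4 and had 6.31 and 6.69 TPM, while the full-length Clk4-201 had 1.46 and 2.76 TPM. Clk4-213, which keeps introns 3, 4, 7 and 8, had 5.76 and 4.80 TPM. Clk4-203, the protein-coding form without exons 2 and 4, went from 3.69 to 0.53 TPM, and the authors' intervals of 2.56 to 4.94 and 0.163 to 1.12 TPM did not overlap. As a share of Clk4 it went from 12.4% to 2.04%, and in the index-based table, where the median gene was lower in replicate 2, from 7.39% to 4.21%.

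Transcripts that keep intron 3 or 4 whole were 41.6% ± 5.62 of the retained-intron TPM in Clk1, 62.0% ± 10.8 in Clk2, 57.9% ± 4.37 in Clk3 and 35.1% ± 0.961 in Clk4 (SD, n = 2). In the index-based table they were 37.9% and 32.4% in Clk1, 48.9% and 60.6% in Clk2, 38.9% and 42.7% in Clk3, and 21.9% and 26.0% in Clk4. This part turned from the larger into the smaller in both libraries of Clk3 and in replicate 1 of Clk2. Most of the rest extended part of the way into an intron without spanning it. Such fragments numbered 5 of the 7 retained-intron transcripts of Clk4 and 4 of the 7 of Clk1. The retained-intron share is thus wider than retention of the introns next to exon 4.

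The fate of exon 4 was therefore taken over the transcripts that span it. These held 56.7% and 50.9% of the TPM of Clk1 and 42.0% and 41.1% of that of Clk4 in the alignment-based table. They held 83.6% in both libraries for Clk2, and 69.0% and 64.6% for Clk3. In Clk1 exon 4 was spliced in for 16.8% and 26.8% of spanning TPM, stayed joined to intron 3 or 4 in 35.5% and 42.9%, and was skipped in 47.8% and 30.4%. Left out of these shares was Clk1-213, which starts inside intron 3 and includes exon 4 without spanning it. That transcript held 4.08% and 11.4% of the gene's TPM. By TPM the order of retained and skipped forms was opposite in the 2 libraries. By expected counts, which weight long transcripts more, the retained form was larger in both, at 54.0% and 60.9% against 33.4% and 20.2% skipped. The spliced-in form was the smallest in both, while in replicate 2 of the index-based table the skipped form was smaller, at 25.3% against 30.2%.

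In Clk2 the skipped form was the largest in both libraries, at 58.2% and 46.6%, against 20.9% and 30.5% retained and 20.9% and 23.0% spliced in. Clk3 had 53.2% and 51.6% spliced in, 45.6% and 44.2% retained and 1.21% and 4.19% skipped. By expected counts its retained form was the largest, at 59.9% and 59.3% against 39.9% spliced in for each library. The skipped share of Clk3 was below that of the other 3 genes in both libraries and both tables.

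In Clk4 the retained form was at 45.9% and 44.9%, the skipped form at 42.4% and 29.3% and the spliced-in form at 11.6% and 25.8%. The tables disagreed on this gene. In the index-based table the skipped form was largest and higher in replicate 2, at 53.5% and 63.0%, with 37.6% and 24.02% retained. The skipping transcript Clk4-212 had 2.67 and 2.71 TPM there, against 0.47 and 0.77 TPM in the alignment-based table. By expected counts of the alignment-based table the difference ran the other way, with 69.0% and 69.5% retained against 21.8% and 9.57% skipped. For Clk1, Clk2 and Clk3 the index-based table gave the same largest form as the alignment-based table in each library.

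**Figure D5:**
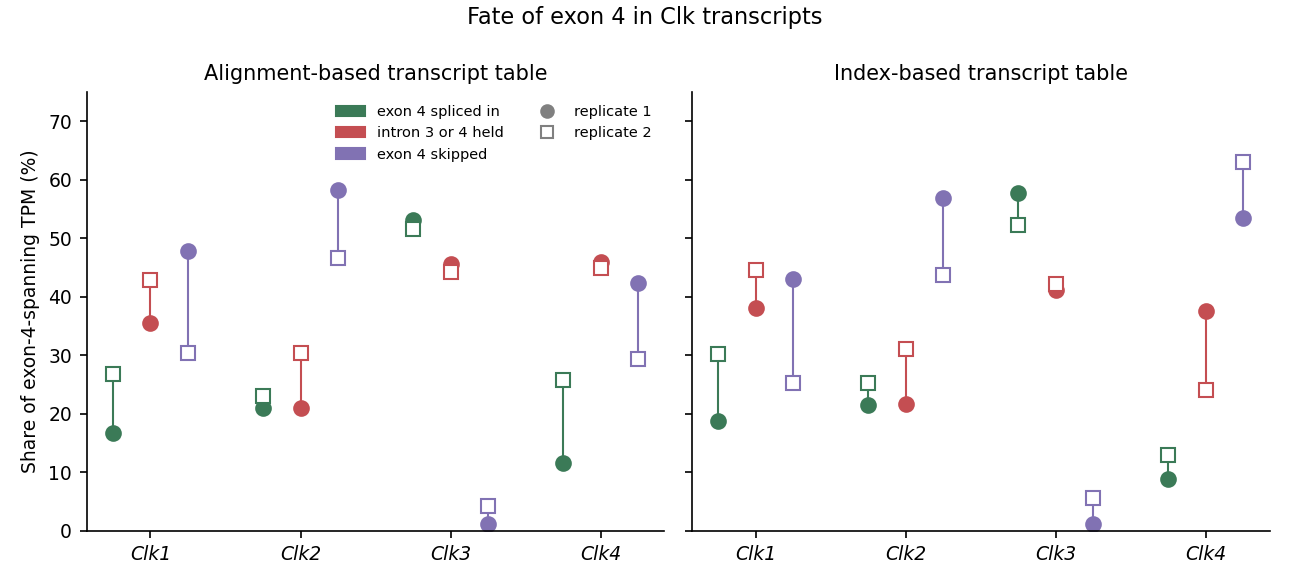
Share of the TPM of exon-4-spanning transcripts in which exon 4 is spliced in (green), joined to intron 3 or 4 (red) or skipped (purple), for replicate 1 (filled circle) and replicate 2 (open square) in both transcript tables. Skipping is under 6% in Clk3 and over 25% in every library of the other genes, and the lines show that it falls in replicate 2 in Clk1 and Clk2 in both tables but has opposite directions in Clk4.

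The balance of retained-intron against protein-coding counts was called for none of the 4 genes between the libraries, where 9.82% of 6346 genes were called (Fisher's exact test, Benjamini-Hochberg adjusted, with a limit of 10 percentage points). The retained-intron part of both classes was 86.6% and 83.1% in Clk1 (adjusted p = 4.67e-05, same exact test), 64.7% and 63.3% in Clk2, 65.7% and 65.6% in Clk3, and 60.0% and 58.3% in Clk4. For Clk1 the direction depends on the denominator. Against all other counts of the gene the retained-intron share was 59.8% and 66.4%, higher in replicate 2, and still under the limit, which 8.57% of genes passed.

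The NMD class of Clk1 differed between the libraries. Against protein-coding counts, NMD counts of Clk1 were 72.7% of 2220 in replicate 1 and 51.7% of 1446 in replicate 2, 20.9 points lower (adjusted p = 4.13e-36, Fisher's exact test). It was the 1 Clk gene called, where 14.3% of 3120 genes were, 8.27% with the lower share in replicate 2. The index-based table gave 68.3% and 44.1%, and the share of all counts of the gene was 24.5% and 14.5%. Clk1 was called in both settings, as were 14.2% and 11.0% of genes. The differences in Clk2 (70.6% and 64.0%), Clk3 (0.561% and 1.86%) and Clk4 (5.39% and 9.52%) were under 10 points. This test was added after the shares had been seen, it covers counting error only, and the 2 libraries differ in RNA input, whose part in the result was not tested.

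The SR proteins are the substrates of the CLK kinases. Of 11 genes, 10 had 10 or more counts in both libraries, with a median of 23.6 TPM over the list, and 8 entered the share comparison, with a median retained-intron share of 42.7% against 21.4% for all genes. Srsf5 was the highest of them in level at 195 ± 2.63 TPM and Srsf12 the lowest at 0.005 TPM. Srsf11 had the highest retained-intron share at 80.5% ± 2.93 and Srsf4 the lowest at 22.5% ± 5.55. None was called on counts, where 4.48% of all genes were. On the balance of retained-intron and protein-coding counts 3 of 8 were called, where 9.82% of all genes tested were: Srsf6 by 18.4 and Srsf4 by 12.8 points higher in replicate 2, and Srsf5 by 12.6 points lower.

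The 17 SR-related proteins had a median of 28.7 TPM and, for 14 of them, a median share of 44.0%, from 5.49% ± 1.88 in Scaf1 to 76.7% ± 5.87 in Arglu1. Their levels ran from 6.34 TPM in Rsrc1 to 138 TPM in Son. Tra2a and Tra2b were in this list and also in the next. The 7 genes described elsewhere with detained or regulated retained introns had a median share of 45.7%, from 2.32% ± 1.56 in Nxf1, an mRNA export factor, to 54.3% ± 7.83 in Mdm2, which targets p53 for destruction. Mdm2 was also the highest of these in level, at 219 TPM, and Mdm4 the lowest, at 43.8 TPM. Of these lists only Mgea5, which encodes O-GlcNAcase, was called on that balance, 10.7 points lower in replicate 2, again beside 9.82% of all genes.

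Other kinases were read in the same way. The 4 other SR protein kinases, led by Prpf4b at 34.8 TPM, had shares of 61.9% ± 6.25 in Srpk1, 26.7% ± 0.812 in Srpk2 and 14.03% ± 4.18 in Prpf4b. In the index-based table Prpf4b was at 31.7%. Srpk1 was called on the balance of counts, 11.9 points higher in replicate 2, beside the same 9.82%, and Srpk3 was lowest in level at 0.275 TPM. Among 9 DYRK and HIPK kinases, relatives of the CLK family, 3 entered the comparison, with a median share of 14.6%, from 3.57% in Hipk2 to 31.7% in Hipk1. In the index-based table their median was 28.1%, the value of Hipk2 there, close to the 27.4% of all genes. Dyrk2 was highest at 43.9 TPM, and Dyrk4 was at 0 in both libraries. The 10 NMD factors had a median of 7.05 TPM, from Smg8 at 2.90 to Smg1 at 41.5 TPM, and a median share of 29.2% for 6 of them, lowest in Smg6 at 5.24% and highest in Smg9 at 59.8%. In the index-based table Smg6 was at 33.0% and the median of the NMD factors at 37.5%. Median shares there were 44.3% for the SR proteins, 44.6% for the SR-related proteins and 45.2% for the genes with detained or regulated retained introns. No member of these lists was called on counts.

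The 12 shares of a gene (3 classes, 2 libraries, 2 tables) were used to find the genes most like each Clk gene among 2095 protein-coding genes with transcripts of all 3 classes. The nearest to Clk3 were Mef2a, Srsf7 and Wnk1, at distances of 7.25 to 10.5 percentage points. Those nearest to Clk1 were Ggct, Uckl1 and Mdm2, at 18.1 to 20.9 points. Clk2 was nearest to Slc35b1, Gbp6 and H2-Eb1, at 21.3 to 22.9 points, and Clk4 to Mpp7, Cops5 and Arhgap4, at 20.97 to 23.4 points. No Clk gene was among the nearest 3 of another. The Clk genes lay 48.8 points (Clk3 and Clk4) to 94.99 points (Clk2 and Clk3) apart.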

How the data were processed

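Nuclear total RNA of 1 group was measured in 2 libraries. The members and lists were chosen with earlier results of these data known. Per the file headers, the tables use mm10 and GENCODE M21. The aligner and quantifier were not given in the sources used here. For each library the authors deposited a gene table and an alignment-based transcript table with expected counts (estimated, divided among transcripts), TPM and FPKM, and an index-based transcript table with estimated counts and TPM. TPM and FPKM, as deposited, are scaled by length and depth. The deposited percent of a gene's TPM per transcript was not used. Shares were recomputed from TPM, with classes from the identifiers of the index-based table.

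Rows outside the annotation (0.144% and 0.081% of counts) were left out, which left 20612078 and 22772081 counts, and 34650106 and 30887071 in the index-based table. Expected counts were rounded. TMM scaling used edgeR 4.0.16 in R 4.3.3. Genes were compared by a two-sided exact binomial test, and classes by a two-sided Fisher's exact test, in genes with 20 or more counts, both Benjamini-Hochberg adjusted over all genes (scipy 1.17.1). Ratios used 0.5 added counts. Calls needed an adjusted p under 0.05 and an absolute log2 ratio of 1 or a difference of 10 points. Binomial intervals are at 95% (Clopper-Pearson). Intervals and p-values cover counting error only, since PCR copies are not independent, and not the division of reads among transcripts. Both tests were tried on simulated data. The simulated gene counts held counting error only, so that trial cannot judge the spread between libraries or the division of reads.

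The annotation lists 13, 11, 9 and 14 transcripts for Clk1 to Clk4. Named are those with at least 5% of the gene's TPM in a library of either table (9, 8, 7 and 12 passed), the main ones in full and the rest by class, and the exon 4 transcripts. From each list the text names the highest and lowest level, the highest and lowest share at 100 or more counts, and members called. Likeness is Euclidean distance over the 12 shares. A retained intron lies whole inside an exon of the transcript. Sequences were read from GENCODE M21 transcripts, and exon 4 pairs aligned globally (Biopython 1.88). Oga was matched as Mgea5 through RefSeq synonyms.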

Additional observations from a re-analysis of the deposited data

How the results depend on the processing

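No paired analysis was possible because the 2 libraries form 1 group. Levels depended on the unit. Means of Clk1, Clk2, Clk3 and Clk4 were 49.95, 4.70, 14.43 and 18.27 TPM in the index-based table, 503, 44.7, 130.4 and 130.2 with TPM scaled over protein-coding genes alone, and 168, 14.9, 43.4 and 43.5 as FPKM. Clk1 was highest and Clk2 lowest in each. The mean retained-intron share moved to 63.1% in Clk1, 65.3% in Clk3 and 57.3% in Clk4 by expected counts. Over retained-intron and protein-coding TPM alone it was 81.6%, 64.0%, 52.8% and 58.4% in Clk1 to Clk4. With transcripts of 500 bases or more it was 48.5% in Clk3 and 44.6% in Clk4. In the index-based table it was 50.4% in Clk3, against 51.8% ± 0.346. Clk1 was at 55.0% there against 51.0%, a larger difference that lay within its SD of 9.78. Directions between the libraries reversed in 4 cases, none of them called: the retained-intron difference against all other counts became 6.70 points in Clk1 and 2.97 in Clk2, that of Clk3 became 1.53 points in the index-based table, and the log2 count ratio of Clk2 with library totals -0.036. Where these values moved the cause was not tested. Leaving out either library left each level and share within 1 SD of its mean, which 2 libraries allow by construction. Depth limits Clk2, whose 539 and 581 counts are divided among 11 transcripts.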
